A study of Homo sapiens with 6 samples.

Results

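The cytosolic ribosomal proteins are the protein part of the ribosome that works in the cytoplasm. Their genes were picked by symbol: RPL or RPS followed by a number with an optional A, X or L and a further digit, RPLP followed by a digit, or RPSA. The rule found 84 of the 19976 genes listed in the deposited table. Of these, 43 encode large subunit proteins, 3 encode the large subunit stalk (RPLP0, RPLP1 and RPLP2), 31 encode small subunit proteins, and 7 are paralogues named after a core gene (RPL3L, RPL7L1, RPL10L, RPL22L1, RPL26L1, RPL39L and RPS27L). The first 3 classes together are the 77 core genes. FAU, which encodes a ribosomal protein fused to a ubiquitin-like protein, falls outside the name rule and is described with the partner genes.

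RNA was sequenced from THP-1, a human monocytic leukaemia line, after differentiation into macrophage-like cells. All 6 samples had received the phorbol ester PMA at 50 ng/ml for 48 h and, at the end, lipopolysaccharide (LPS) at 200 ng/ml for 3 h, so the table holds no unstimulated and no untransfected sample. The control group (3 libraries, called control 1 to 3) had 200 nM of the siRNA labelled NC for 48 h in between, and the circ group (3 libraries, circ 1 to 3) had 200 nM siRNA against the circular RNA hsa_circ_0004287 for the same time. The labels do not say that the 3 libraries of a group came from separate cultures, so the p-values cover only how far the 3 libraries of a group lie apart, and that spread may be technical.

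The ribosome carries the core proteins in fixed proportions, and their mRNAs are among the most abundant in growing cells. Most of their mRNAs begin with a C followed by a run of C and T, the 5′ terminal oligopyrimidine (TOP) stretch, through which the kinase mTOR and the protein LARP1 adjust their translation and stability together. In macrophages, LPS activates mTOR along with the inflammatory genes, and several ribosomal proteins have roles outside the ribosome in immune and stress signalling.

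The letters at the start of the core genes are the feature they share that the name rule did not use. RefSeq promoters (build GRCh38.p14) were found for 67 of the 84 genes. On the transcribed strand, a C within 5 bases of the RefSeq start followed by at least 4 C or T was present in 50 of 62 core genes (80.6%), against 22.1% of 15843 promoters of coding genes. Placed exactly at the start base, these letters were present in 42 of 62 core genes (67.7%), against 4.60% of coding promoters. The stalk genes had them in 3 of 3 cases, the other large subunit genes in 28 of 35, the small subunit genes in 19 of 24, and the paralogues in 1 of 5 (RPL22L1). The starts of 3 large and 3 small subunit genes, those with the most reads among the named genes, are shown to make the shared opening visible. Each line gives 15 bases before and 15 bases from the RefSeq start, 5′ to 3′, with the C and T run in capitals.
RPLP0: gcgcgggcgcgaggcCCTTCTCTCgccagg
RPL3: gtaaggccgaccggCCTCTaccggcgggat
RPL41: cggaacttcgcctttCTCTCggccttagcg
RPS18: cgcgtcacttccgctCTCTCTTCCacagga
RPS6: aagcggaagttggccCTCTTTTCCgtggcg
RPS3: gcccgcgagccacttCCTTTCCTTTCagcg
These windows lie at chr12:120201097-120201126, minus strand (RPLP0), chr22:39319609-39319638, minus strand (RPL3), chr12:56116618-56116647, plus strand (RPL41), chr6:33272060-33272089, plus strand (RPS18), chr9:19380222-19380251, minus strand (RPS6) and chr11:75399503-75399532, plus strand (RPS3). In RPL3 the run opens 1 base before the listed start, and in the others it opens on the start base. A match of letters is a description and not proof of a working site.

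The libraries held 14793902 to 16736972 counts. Control 1 and circ 3 stood apart from the other 4 libraries on the first principal component of all tested genes, which took 53.4% of the variance, with scores of -23.2 and -38.4 against -1.51 to 30.4. All 12 macrophage markers had counts, and their sum was 3632 to 4474 counts per 1000000 (CPM) of the deposited totals in the control group and 2942 to 4367 in the circ group. Markers of T and NK cells (5 of 8 with a count) summed to at most 6.13 CPM and epithelial markers (4 of 6) to at most 0.693 CPM, with CD3G, CD2, CD247, EPCAM and KRT5 at 0 in every library. B cell markers (6 of 6) summed to 24.3 to 26.7 CPM in the control and 34.9 to 43.7 CPM in the circ libraries, neutrophil markers (5 of 6) to 34.6 to 40.6 and 41.3 to 52.99 CPM with CEACAM8 at 0, and fibroblast markers (6 of 6) to 13.96 to 19.2 and 11.8 to 17.2 CPM. Their part in the results was not tested. The libraries were made from poly-A RNA and the table lists linear genes, so the level of the circular RNA itself was not analysed here.

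The ribosomal protein genes took a share of all counts that varied more among the control libraries than between the groups. It was 3.35%, 5.99% and 5.05% in control 1, 2 and 3, and 3.88%, 4.53% and 3.83% in circ 1, 2 and 3. Control 1 had the lowest share and control 2 the highest, so the control group enclosed all 3 circ libraries. The means were 4.80% ± 1.34 (SD, n = 3) and 4.08% ± 0.39 (SD, n = 3), a difference of -0.72 percentage points. That difference was -1.44 points without control 1, -0.12 without control 2, and -1.32 without control 1 and circ 3. The exact binomial 95% interval of each share was narrow, 3.34% to 3.36% in control 1 and 5.98% to 6.003% in control 2, and covers counting error only.

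Large and small subunit genes moved together in every library. The counts of the large subunit, stalk included, were 1.61 to 1.67 times those of the small subunit in all 6 libraries, with means of 1.64 ± 0.03 in the control and 1.66 ± 0.01 in the circ group (SD, n = 3). The paralogues supplied at most 0.70% of the counts of all 84 genes in any library. In bulk RNA, fewer cells and less RNA per cell cannot be told apart, and a share cannot show whether the ribosomal protein mRNAs or all the others changed.

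Gene by gene, the same libraries stood at the ends in most cases. For each gene the deviation is its log2 CPM in a library minus its mean over the 6 libraries, with CPM relative to TMM-scaled library sizes. The median deviation of the 77 core genes was 0.54 in control 2, 0.26 in control 3, 0.10 in circ 2, -0.17 in circ 1, -0.29 in circ 3 and -0.46 in control 1. Control 2 was the highest library for 74 of the 82 tested genes, against 24.0% of all tested genes. Control 1 or circ 3 was the lowest for 76 of 82, against 43.1% of all tested genes. Control 2 exceeded control 1 at least 1.5 times in 73 of 82, against 14.9% of all tested genes. The spread within the control group thus ran through nearly the whole set, and the circ libraries lay inside it.

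**Figure D1:**
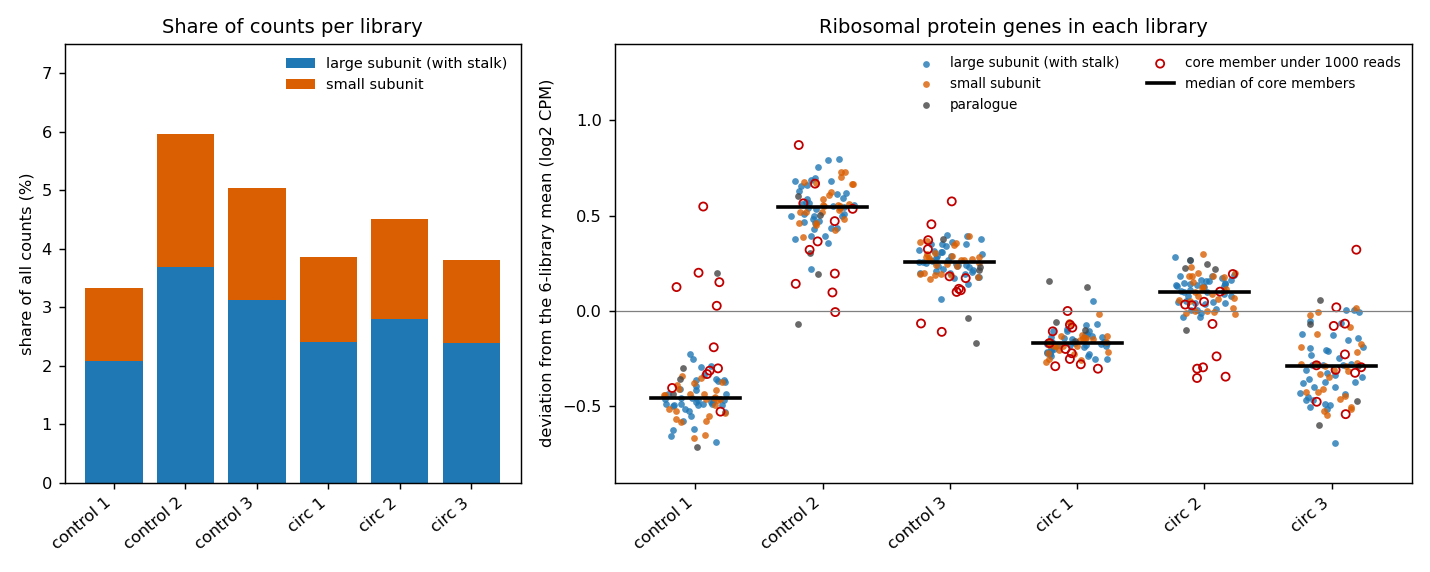
Left, share of all counts (%) from large subunit genes with the stalk and from small subunit genes in each library, as stacked bars; right, deviation of each of the 82 tested genes from its 6-library mean (log2 CPM), with points coloured by class, open circles for core genes under 1000 mean reads and bars for the median of the 77 core genes. Control 1 and control 2 lie at the opposite ends, with medians of -0.46 and 0.54, and the circ libraries lie between them.

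The stalk proteins RPLP0, RPLP1 and RPLP2 form the arm of the large subunit that recruits the elongation factors. In the order of libraries 1, 2 and 3 of each group, RPLP0 (chr12:120196699-120201235, minus strand, build GRCh38 as in the table) stood at 1131, 1812 and 1561 CPM in the control libraries and 1161, 1353 and 1378 CPM in the circ libraries. RPLP1 stood at 541, 1339 and 1071 CPM in the control libraries and 736, 946 and 617 CPM in the circ libraries. RPLP2 stood at 284, 791 and 599 CPM in the control libraries and 402, 521 and 322 CPM in the circ libraries. In all 3 genes control 1 was the lowest library and control 2 the highest, and the groups overlapped. The log2 fold change, circ minus control, was -0.21 for RPLP0 (95% interval -0.64 to 0.21), -0.36 for RPLP1 (-1.08 to 0.36) and -0.43 for RPLP2 (-1.21 to 0.36). None passed the test, with edgeR adjusted p of 0.886, 0.886 and 0.885. The short RPLP1 and RPLP2 differed more between control 2 and control 1 (2.48-fold and 2.78-fold) than RPLP0, the long anchor of the arm (1.602-fold).

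Among the other large subunit genes, RPL5 and RPL11 encode proteins that travel with the small ribosomal RNA of the large subunit and bind the ubiquitin ligase MDM2 when free. RPL5 stood at 474, 809 and 693 CPM in the control libraries and 503, 593 and 577 CPM in the circ libraries. RPL11 stood at 377, 776 and 621 CPM in the control libraries and 487, 575 and 449 CPM in the circ libraries. Both were highest in control 2 and lowest in control 1, with every circ library in between. Their log2 fold changes were -0.24 (95% interval -0.69 to 0.21, adjusted p = 0.885, edgeR) and -0.23 (-0.80 to 0.33, adjusted p = 0.889), and the value of RPL11 turned to 0.015 without control 2.

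RPL13A is known in human monocytic cells as the subunit released from the ribosome into an interferon-induced complex that silences translation of inflammatory mRNAs. It stood at 583, 1347 and 1113 CPM in the control libraries and 764, 944 and 619.8 CPM in the circ libraries. Control 2 was the highest library and control 1 the lowest, and circ 3 lay close to control 1. The log2 fold change was -0.39 (95% interval -1.06 to 0.29, edgeR adjusted p = 0.885). RPL3, whose protein reaches towards the peptidyl transferase centre, stood at 946, 1603 and 1409 CPM in the control libraries and 1064, 1252 and 1170.3 CPM in the circ libraries, and its log2 fold change was -0.18 (adjusted p = 0.889). RPL28 was chosen here after its values were seen, for its high count per coding length. It stood at 754, 1633 and 1421 CPM in the control libraries and 1198, 1389.5 and 821 CPM in the circ libraries. Its groups overlapped, and its log2 fold change was -0.16 (adjusted p = 0.924).

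RPL41 encodes the smallest protein of the set, with 75 coding bases. It had the highest number of reads per kilobase of coding length, 201780 as a mean of the 6 libraries, and all of its coding sequence is also found in pseudogenes, so its count is uncertain. It stood at 680.4, 1310.0 and 1087 CPM in the control libraries and 878, 1030.0 and 699 CPM in the circ libraries. Control 2 was highest and control 1 lowest, and the log2 fold change was -0.24 (adjusted p = 0.889).

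RPL15, an essential protein that is mutated in some patients with Diamond-Blackfan anaemia, was the flattest at 582, 794 and 710.2 CPM in the control libraries and 634, 701 and 683 CPM in the circ libraries. Its control 2 to control 1 ratio of 1.37 was the smallest among the 66 core genes with at least 1000 mean reads, and its log2 fold change, -0.047 (95% interval -0.38 to 0.28), was the closest to 0 among the core genes and turned to 0.059 without control 2. RPL7 had the smallest p of those abundant large subunit genes that the naming rule took, standing at 488, 828 and 709 CPM in the control libraries and 508, 599 and 522 CPM in the circ libraries. Its circ libraries lay above control 1 and below the other controls, and the log2 fold change was -0.31 (-0.76 to 0.13, edgeR adjusted p = 0.866).

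In the small subunit, RPS3 sits at the mRNA entry and is also known as a partner of NF-κB, and RPS6 is the protein phosphorylated by the S6 kinases downstream of mTOR. RPS3 stood at 555, 1105 and 906 CPM in the control libraries and 663, 787 and 620.0 CPM in the circ libraries. RPS6 stood at 924, 1668 and 1366 CPM in the control libraries and 993, 1186 and 1178 CPM in the circ libraries. Again control 1 was lowest and control 2 highest. The log2 fold changes were -0.31 for RPS3 (95% interval -0.86 to 0.24, edgeR adjusted p = 0.885) and -0.24 for RPS6 (-0.72 to 0.25, adjusted p = 0.886).

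RPS14 and RPS19 are needed for late maturation of the small subunit, and loss of a copy of either causes anaemia in people. RPS14 stood at 421, 922 and 727 CPM in the control libraries and 533, 649 and 499 CPM in the circ libraries. RPS19 stood at 485, 1157 and 935 CPM in the control libraries and 662, 821 and 507 CPM in the circ libraries. The circ libraries of both lay inside the range of the controls, and the log2 fold changes were -0.30 (adjusted p = 0.886) and -0.37 (adjusted p = 0.885).

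RPS27A encodes ubiquitin fused to a small subunit protein, RPSA also serves as a laminin-binding protein at the cell surface, and RPS18 and RPS27 had the highest reads per kilobase of coding length in the small subunit. RPS27A stood at 282, 651 and 488 CPM in the control libraries and 366, 445 and 322 CPM in the circ libraries. RPSA stood at 408, 727 and 619 CPM in the control libraries and 465, 542 and 548 CPM in the circ libraries. RPS18 stood at 1022, 1906 and 1519 CPM in the control libraries and 1217, 1413 and 1089.5 CPM in the circ libraries. All 3 showed the same low control 1 and high control 2 as the genes described above. Log2 fold changes were -0.33 for RPS27A, -0.17 for RPSA, -0.26 for RPS18 and -0.33 for RPS27, with edgeR adjusted p between 0.885 and 0.894. The value of RPSA turned to 0.015 without control 2.

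Across the set, the test called 0 of 82 genes lower and 0 higher in the circ group (edgeR quasi-likelihood test, adjusted p under 0.05). The background was 0.00802% of 12469 genes called lower and 0.0% called higher, so a lack of calls says little about these genes. DESeq2 called 0 of the 82, with a background of 0.184% lower and 0.481% higher. Limma-voom called 0, with a background of 0.0% in both directions. At an unadjusted p under 0.05, 2 of 82 were lower, RPL26 among them, and 0 higher, and the background was 2.68% lower and 3.77% higher. The log2 fold change was negative in 81 of 82 genes, against 51.2% of all tested genes, and RPL26L1 was the exception. Other tested genes of similar coding length were also more often negative than positive. Negative values were found in 182 of 243 under 300 bases, 394 of 536 from 300 to 450 and 492 of 731 from 450 to 600. From 600 to 800 bases they were found in 696 of 1119, and from 800 to 1300 in 1714 of 2999. The median of the 82 genes was -0.29, against -0.007 over all tested genes, with a range of -0.57 to 0.21. The 46 large subunit and stalk genes had a median of -0.29 and the 31 small subunit genes -0.30. The groups did not overlap in 3 of 82 genes (circ lower in each, RPL17 and RPL26 among them), against 5.87% of all tested genes with circ lower and 6.64% with circ higher.

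The size of the shift rested on individual libraries. Without control 2 the median was -0.06, and 67 of 82 genes were negative against 51.5% of all genes tested there. Without control 1 the median was -0.51. Without both control 1 and circ 3, which leaves 2 libraries per group, the median was -0.43, and 64 of 82 genes were called lower and 0 higher (edgeR, adjusted p under 0.05), against a background of 7.43% lower and 7.38% higher. These 64 were 38 large subunit or stalk genes, 26 small subunit genes and 0 paralogues. In that fit RPL13A had -0.52 (adjusted p = 0.00759), RPS6 -0.47 (adjusted p = 0.0107) and RPLP0 -0.42 (adjusted p = 0.0114). All 77 core genes were negative there, between -0.69 and -0.16, and RPL15 was among those not called, at -0.17 (adjusted p = 0.186). The fit leaves out the lowest control library for most of these genes. Control 1 and circ 3 were left out because they stand apart over all genes, but that choice is not neutral for this set. On the first principal component the remaining libraries ran from control 2 (30.4) and control 3 (21.3) to circ 2 (11.5) and circ 1 (-1.51). The median deviations of the core genes had the same order. These calls therefore cannot be separated from the choice of libraries.

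**Figure D2:**
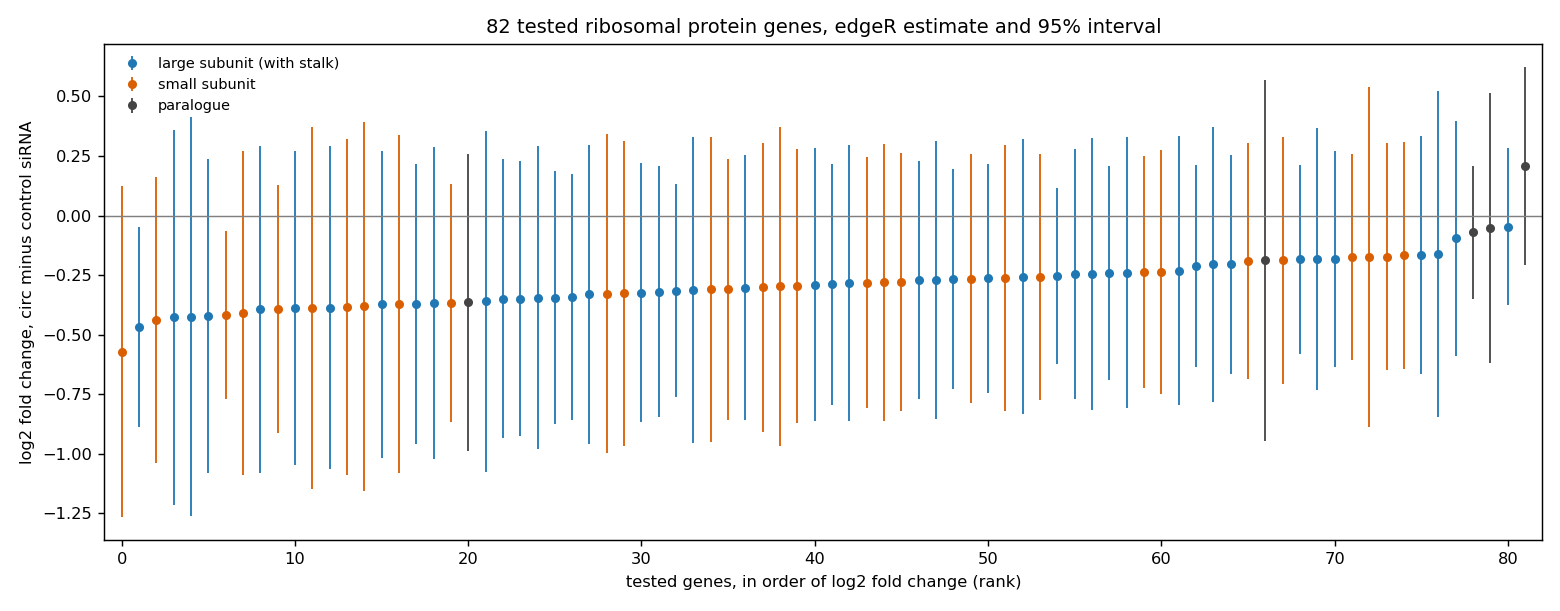
Log2 fold change (circ minus control siRNA) of the 82 tested genes in order of value, with points for the edgeR estimate, vertical lines for the 95% interval and colour for the class. All but RPL26L1, the last point, lie below 0, and the intervals of 2 genes, RPL26 among them, leave out 0.

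The size of the library differences went with coding length. Core genes are short, with 75 to 1281 coding bases and a median of 456 in GENCODE 29, whereas the median of all tested genes was 1398. Over the 66 core genes with at least 1000 mean reads (a limit chosen after the values were seen), the control 2 to control 1 ratio ran from 1.37 to 2.78 with a median of 2.03. RPLP2 and RPL36, with 345 and 315 coding bases, had ratios of 2.78 and 2.74. RPL4, with 1281 coding bases, had 1.53, and RPL3, with 1209, had 1.696. RPL36 and RPL4 were chosen here after their values were seen.

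Spearman's correlation of the deviation with coding length over these 66 genes was 0.56 in control 1, -0.69 in control 2, -0.32 in control 3, -0.47 in circ 1, -0.70 in circ 2 and 0.75 in circ 3. The genes share the same 6 libraries and their depth, so these values are descriptions. The shortest core genes were thus the furthest down in circ 3 and control 1 and the furthest up in control 2. In circ 3 the median deviation was -0.44 for the 8 core genes under 300 coding bases and -0.05 for the 7 of at least 800. In control 1 the same medians were -0.49 and -0.37.

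In these 2 measures, the control 2 to control 1 ratio and the fold change, other genes of the same length leaned the same way, less far. In circ 1 they did not, since the median deviation went from -0.13 under 300 bases to -0.22 from 800 bases in the core genes, and from -0.05 to -0.01 in the others. Under 300 coding bases the control 2 to control 1 ratio had a median of 2.25 in the 8 core genes and 1.60 in 243 other tested genes. Between 300 and 450 bases the medians were 2.15 in 20 core genes and 1.45 in 536 others, and from 800 to 1300 bases they were 1.71 in 7 and 1.10 in 2999. The median log2 fold change, circ minus control, was -0.35 in the core genes and -0.19 in the others under 300 bases, -0.33 and -0.15 from 300 to 450, -0.27 and -0.12 from 450 to 600, -0.28 and -0.07 from 600 to 800, and -0.20 and -0.04 from 800 to 1300. A fit with an offset for each library's trend with coding length, an alternative chosen after seeing the data, left a median of -0.17 and 77 of 82 negative values, against 51.8% of all tested genes. With the length column of the deposited table in place of coding length, the median was -0.22. Both fits called 0 of the 82 genes, with a background of 0.0401% lower in each, and 0.0241% (coding length) and 0.00802% (table length) higher. The part of length in the differences was not tested beyond these values.

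**Figure D3:**
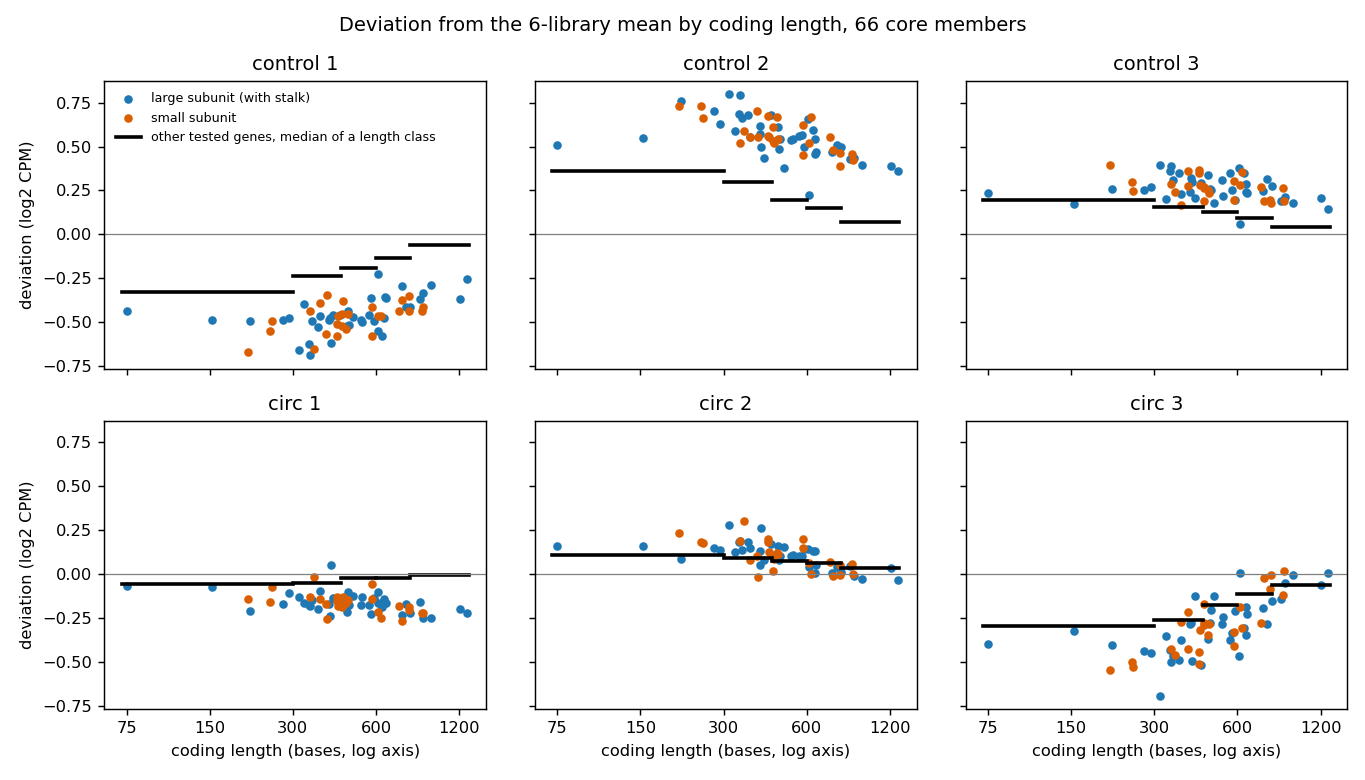
Deviation from the 6-library mean (log2 CPM) against coding length (bases, log axis) for the 66 core genes with at least 1000 mean reads, with a panel for each library, colour for the subunit and black steps for the median of the other tested genes in 5 length classes. Short core genes lie lowest in circ 3 and control 1 and highest in control 2, and in these 3 libraries the black steps lean the same way. In circ 1 the black steps rise slightly with length while the core genes fall.

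The deposited FPKM values cannot rank these genes on the length of their mature mRNA. The length column of the table gives the 77 core genes 639 to 9845 bases with a median of 3002, several times their coding length. RPL37, for example, is listed at 8040 bases with 291 coding bases, and RPL28 at 6933 with 411. RPL37 and RPL28 were chosen for this comparison after their values were seen.

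A small group of core genes had few reads. In 11 of the 77 the mean was 43.7 to 875.5 reads per library, against 2157 to 23567 in the other 66. Per kilobase of coding length the ranges were 79.1 to 4829 and 3523 to 201780 reads, so they overlapped at the edge. RPL17, RPL22, RPL26, RPL30, RPL36A, RPS10, RPS15A and RPS23 were among the 11. In 8 of the 11, RPL17, RPL22, RPL26 and RPS10 among them, at least 25% of the 75-base windows of the coding sequence also occur in another coding gene that overlaps the same stretch of the genome. No core gene with at least 1000 mean reads reached that percentage with an overlapping coding gene, and RPS3A, the highest of them, had 19.4%. The limit of 25% was not set in advance and lies just below the 25.1% of RPS23, the lowest of the 8. The partner genes were listed at 0 reads in every library in 7 of the 8 cases, among them RPL17-C18orf32, RPL36A-HNRNPH2 and RPS10-NUDT3, and ATG10, the partner of RPS23, had 35 to 47 reads. Windows shared with pseudogenes elsewhere did not sort the genes in this way: 9 core genes had all of their windows in another gene, and 6 of these, such as RPL41, RPS27 and RPS28, were among the abundant 66. How the counting tool treated shared reads is not stated in any label. The values of the 8 low-count genes that share windows in this way are uncertain for that reason. RPL30, also among the 11, had 0.0% of its windows in another coding gene, and the reason for its low count was not tested.

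**Figure D4:**
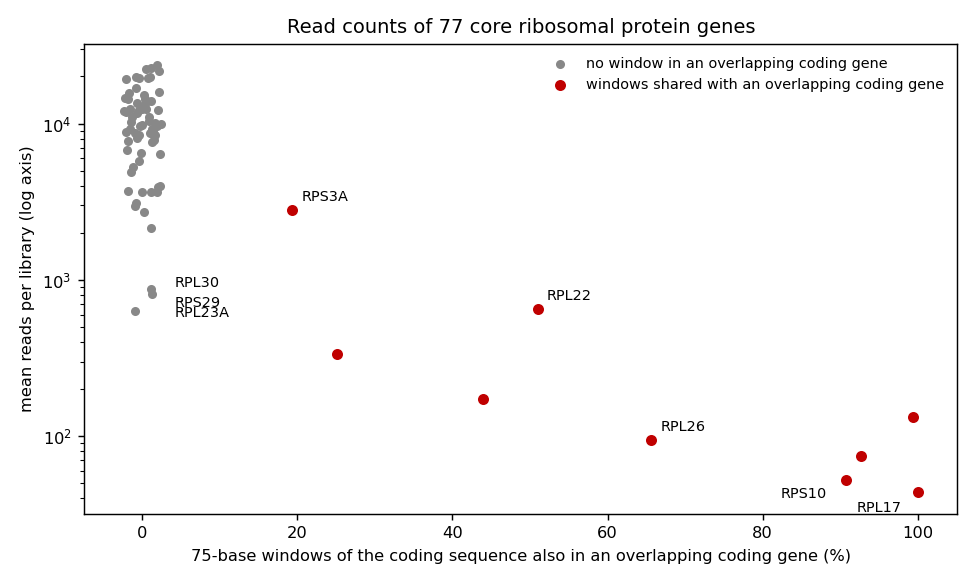
Mean reads per library (log axis) of the 77 core genes against the percentage of 75-base windows of their coding sequence that also occur in an overlapping coding gene; grey points at 0% are spread sideways, and red points are genes that share windows. The red points from 25% upwards all lie below 1000 reads, and RPL17, with 100% of its windows shared, lies lowest at 43.7.

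The low-count genes held the smallest p-values and all 3 genes whose groups did not overlap. Such a count, 3 of 82, was not above the 5.87% of all tested genes with circ lower. RPL26 (chr17:8377516-8383213, minus strand), a protein of the large subunit, stood at 6.37, 6.24 and 8.04 CPM in the control libraries and 4.703, 4.73 and 5.51 CPM in the circ libraries. RPL17 stood at 3.099, 3.09 and 2.92 CPM in the control libraries and 2.17, 2.89 and 2.12 CPM in the circ libraries. In both each circ library was below each control library in CPM, by a small margin in RPL17. Before scaling, RPL17 had 47 reads in circ 2 and 45 in control 3. In both genes control 1 was not low as it was in the abundant genes. The log2 fold changes were -0.47 for RPL26 (95% interval -0.89 to -0.046, edgeR adjusted p = 0.722) and -0.34 for RPL17 (adjusted p = 0.871). Without control 1 and circ 3, RPL26 had -0.59 (adjusted p = 0.0591).

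RPS10, which had the most negative value of all 82 genes, stood at 2.47, 4.601 and 4.73 CPM in the control libraries and 3.14, 2.64 and 2.12 CPM in the circ libraries. Control 1 lay among the circ libraries, and the log2 fold change was -0.57 (95% interval -1.27 to 0.12, edgeR adjusted p = 0.846). RPS15A stood at 8.49, 14.6 and 13.6 CPM in the control libraries and 8.62, 10.7 and 8.53 CPM in the circ libraries, with a log2 fold change of -0.39 (adjusted p = 0.864). RPL22, an RNA-binding protein that is not essential for the ribosome and that regulates lymphocyte development in mice, stood at 35.1, 51.7 and 45.5 CPM in the control libraries and 34.4, 38.2 and 38.3 CPM in the circ libraries. Its control 1 lay within the range of the circ libraries, and the log2 fold change was -0.25 (adjusted p = 0.870).

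The 7 paralogues were read apart from the core genes. RPL10L, known as a testis form of RPL10, had 0 reads in every library, which allows up to 0.179 to 0.203 CPM in each (3 counts). RPL3L, known from heart and skeletal muscle, had 1, 3 and 3 reads in the control libraries and 5, 3 and 4 in the circ libraries and was not tested. The other 5 passed the filter on low counts, and 0 were called, against 0.00802% of all tested genes lower and 0.0% higher. Their log2 fold change was negative in 4 of 5, with a median of -0.07, against -0.30 in the core genes. Without control 1 and circ 3 these medians were -0.06 and -0.44. The median deviation of the 5 was highest in control 2 (0.30) and lowest in control 1 (-0.36), the same ends as in the core genes.

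RPL22L1 shares 68.6% of aligned coding bases with RPL22 and can take its place in the ribosome. It stood at 20.6, 38.7 and 29.9 CPM in the control libraries and 22.7, 29.7 and 16.7 CPM in the circ libraries, with control 2 highest and circ 3 lowest. The log2 fold change was -0.36 (95% interval -0.99 to 0.26, edgeR adjusted p = 0.882). RPL39L, 94.8% identical to RPL39 in coding bases, stood at 2.64, 6.31 and 5.77 CPM in the control libraries and 4.100, 5.16 and 3.59 CPM in the circ libraries, and RPL39, whose protein lines the exit tunnel, at 161, 331 and 255 CPM in the control libraries and 215, 252 and 180.5 CPM in the circ libraries. Both were lowest in control 1 and highest in control 2, and their log2 fold changes were -0.19 and -0.21 (adjusted p = 0.921 and 0.894). Without control 2 these were 0.036 and 0.055. None of the 79 windows of 75 coding bases of RPL39L occurs in another gene, while all 79 of RPL39 also occur in pseudogenes.

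RPS27L, 77.8% identical to RPS27 in coding bases, stood at 22.8, 38.1 and 35.8 CPM in the control libraries and 33.7, 37.2 and 22.3 CPM in the circ libraries. RPS27 stood at 472, 1052 and 788 CPM in the control libraries and 632, 750.4 and 461 CPM in the circ libraries. Control 1 and circ 3 were the lowest libraries in both, and the log2 fold changes were -0.054 and -0.33. That of RPS27L was 0.084 without control 2, 0.028 without control 3 and 0.14 without circ 3. RPL26L1, 84.1% identical to RPL26, stood at 12.00, 17.7 and 13.7 CPM in the control libraries and 17.2, 18.3 and 14.7 CPM in the circ libraries. Its log2 fold change was 0.21 (95% interval -0.21 to 0.63, edgeR adjusted p = 0.885), the only positive value of the 82 and opposite in sign to that of RPL26. The difference between the pair was not tested.

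RPL7L1 was the only 1 of the 5 tested paralogues with control 1 as its highest library. It stood at 165, 137 and 140.4 CPM in the control libraries and 138, 134 and 149.9 CPM in the circ libraries, while RPL7 had control 1 as its lowest library. The genes share 57.0% of aligned coding bases. The log2 fold change of RPL7L1 was -0.070 (95% interval -0.35 to 0.21, edgeR adjusted p = 0.921), and 0.021 without control 1.

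The other genes of the translation machinery were read from lists, and 0 genes of any list were called by edgeR, DESeq2 or limma-voom. Over all tested genes edgeR called 0.00802% lower and 0.0% higher, DESeq2 0.184% and 0.481%, and limma-voom 0.0% in both directions. The lack of calls thus says little about the lists. The 8 partner genes were negative in 8 of 8, with a median log2 fold change of -0.24, against 51.2% negative among all tested genes. Partner genes are short too, with a median of 447 coding bases. FAU stood at 39.3, 104 and 80.4 CPM in the control libraries and 50.1, 68.5 and 35.3 CPM in the circ libraries (log2 fold change -0.54, adjusted p = 0.872, edgeR). RACK1, a scaffold on the small subunit, stood at 634, 1048 and 948 CPM in the control libraries and 709.9, 805 and 670.4 CPM in the circ libraries (log2 fold change -0.27). Both were highest in control 2, as the core genes were.

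Other genes listed as having TOP mRNAs, which include FAU, RACK1 and some translation factors, gave 14 of 19 negative and a median of -0.12. Within that list TPT1, a small protein bound to tubulin and calcium, stood at 474, 929 and 752 CPM in the control libraries and 532, 647 and 520.3 CPM in the circ libraries, with control 1 and circ 3 lowest and a log2 fold change of -0.34. EEF1A1, which delivers tRNA to the ribosome, stood at 6629.8, 8212 and 7690.2 CPM in the control libraries and 7101, 7545 and 8616 CPM in the circ libraries, with circ 3 the highest library and a log2 fold change of 0.046 (-0.034 without control 1, -0.036 without circ 3 and -0.11 without both). PABPC1, the poly-A binding protein, stood at 1322, 1339 and 1307 CPM in the control libraries and 1281, 1295 and 1482 CPM in the circ libraries, also highest in circ 3, with a log2 fold change of 0.032 (-0.038 without circ 3). EEF2, which moves the ribosome along the mRNA, had a log2 fold change of -0.0048. The values of EEF1A1, EEF2 and PABPC1 thus lay near 0, and that of EEF2 changed sign with library totals as the scaling (0.023) and with any of 4 libraries left out (control 1, control 3, circ 1 or circ 2). VIM, the intermediate filament vimentin, lay with the ribosomal proteins at 1835, 3465 and 2996 CPM in the control libraries and 2087, 2482 and 1853 CPM in the circ libraries, and its log2 fold change was -0.37. Among core genes with at least 1000 mean reads, the median was -0.29 in the 45 with TOP letters within 5 bases of the RefSeq start and -0.30 in the 10 without. Only the first listed start of each gene was read here. With any listed start, 53 of 62 core genes had the letters, against 28.0% of coding promoters. The 10 may therefore include genes with TOP mRNAs.

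The 8 tested elongation factors had a median of -0.01, with EEF1B2, the exchange factor of EEF1A1, at -0.37. The 29 initiation factors had a median of -0.12 with 19 negative, and 1 of them, EIF3J, a loosely bound subunit of eIF3, was lower at an unadjusted p under 0.05, against a background of 2.68% lower. EIF3J stood at 111, 116 and 109 CPM in the control libraries and 87.2, 90.6 and 95.5 CPM in the circ libraries. Its log2 fold change was -0.30 (edgeR adjusted p = 0.659). Each of its circ libraries was below each control, as in 3 of the 29 initiation factors, against 5.87% of all tested genes.

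Ribosome biogenesis factors, which cut, modify and assemble ribosomal RNA and proteins in the nucleolus, differed from the ribosomal proteins in the way their values were spread over libraries. Of 49 tested, 47 were negative with a median log2 fold change of -0.27, close to that of the ribosomal proteins. The groups did not overlap, with circ below, in 19 of 49 (38.8%), against 5.87% of all tested genes and 3 of 82 ribosomal protein genes. At an unadjusted p under 0.05, 14 of 49 were lower and 0 higher, against a background of 2.68% lower. Without control 2 the median was -0.23 and 49 of 49 were negative, and with the coding length offset it was -0.26, while the ribosomal proteins had -0.06 and -0.17. Without control 1 and circ 3, 22 of 49 were called lower and 0 higher, against 7.43% and 7.38% of all genes tested there. The biogenesis genes are longer, with a median of 1668 coding bases, and 8 of 44 (18.2%) had TOP letters. Their difference from the ribosomal protein genes was not tested.

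NOB1, the nuclease that makes the last cut of the small subunit RNA, stood at 35.01, 38.4 and 36.4 CPM in the control libraries and 27.7, 27.1 and 27.7 CPM in the circ libraries. GNL3 (nucleostemin), a nucleolar GTPase, stood at 80.9, 91.2 and 81.98 CPM in the control libraries and 66.99, 68.1 and 64.4 CPM in the circ libraries. RRS1, which helps bring RPL5 and RPL11 into the large subunit, stood at 25.7, 30.1 and 33.3 CPM in the control libraries and 20.7, 24.1 and 18.7 CPM in the circ libraries. In these 3 genes, those with the smallest p of the list, each circ library was below each control library. The log2 fold changes were -0.41 (95% interval -0.67 to -0.15), -0.35 (-0.60 to -0.094) and -0.49 (-0.84 to -0.13), and none passed the threshold (edgeR adjusted p = 0.513, 0.599 and 0.599). NOP56, a core protein of the particles that methylate ribosomal RNA, was chosen after its values were seen and stood at 73.9, 98.9 and 93.97 CPM in the control libraries and 68.7, 72.6 and 51.5 CPM in the circ libraries, again with no overlap of the groups.

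RNA polymerase I, which transcribes ribosomal RNA, gave 9 of 11 tested subunits and factors negative and a median of -0.20, with groups that did not overlap, circ below, in 2 of 11, against 5.87% of all tested genes. Its subunit POLR1E stood at 20.2, 25.7 and 24.2 CPM in the control libraries and 17.1, 18.05 and 17.1 CPM in the circ libraries (log2 fold change -0.42, edgeR adjusted p = 0.602). The list of translation control by mTOR was balanced, with 8 of 17 negative and a median of 0.01. MYC, a transcription factor that drives ribosome biogenesis and was filed in that list, stood at 135, 148 and 147 CPM in the control libraries and 117, 113 and 111 CPM in the circ libraries. MYC had the smallest p of that list, and each of its circ libraries was below each control library. Groups that did not overlap, circ below, were seen in 2 of 17 genes of the list, against 5.87% of all tested genes. The log2 fold change of MYC was -0.34 (95% interval -0.58 to -0.093, edgeR adjusted p = 0.597).

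**Figure D5:**
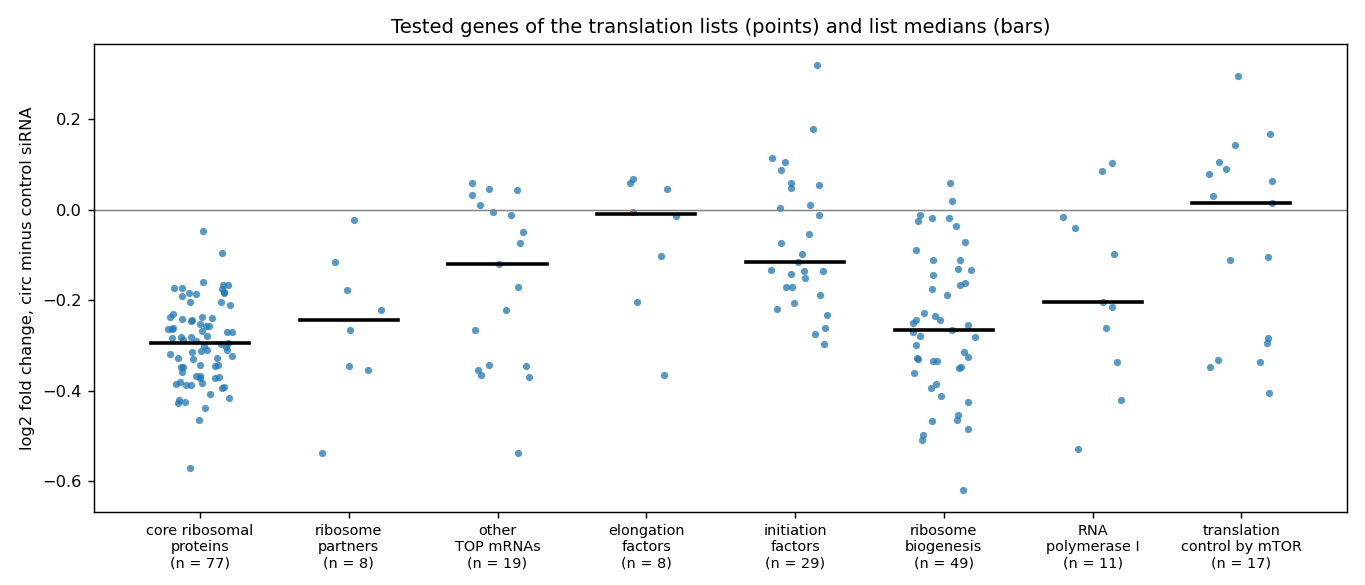
Log2 fold change (circ minus control siRNA) of each tested gene as a point, by list, with the list median as a bar; 77 core ribosomal protein genes stand beside 7 lists of the translation machinery, and some genes are in more than 1 list. Medians run from -0.30 in the core genes and -0.27 in ribosome biogenesis to 0.01 in translation control by mTOR.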

How the data were processed

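Whole-number read counts per gene, not normalised, were used as deposited for 6 libraries. CASAVA, cutadapt, HISAT2 and GRCh38 are named in the submitters' processing notes; not given in the sources used here were their versions, the counter, its use of strand and the annotation. The authors' FPKM values equal counts per length and library total within 1% for every gene above 0, and were used only as an alternative denominator and for description.

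The members and lists were chosen with earlier results of these data known. Counts were tested with edgeR 4.0.16 (R 4.3.3): quasi-likelihood F test, two-sided, TMM scaling, filterByExpr with a minimum count of 10, group as the only term, and Benjamini-Hochberg adjustment over 12469 genes. DESeq2 1.42.0 and limma 3.58.1 (voom) were alternatives, beside other scalings, length offsets (natural splines, 4 degrees of freedom), a replicate block, left-out libraries, filters and thresholds. Deviations used log2 CPM with a prior count of 2. Libraries of the same group differed by more than sampling noise in every pair (chi-square per gene at least 5.98).

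Coding lengths and 75-base windows came from the principal transcripts of GENCODE 29, compared in both orientations, and start letters from RefSeq (GRCh38.p14, first listed start). Pair identity is of coding bases. Genes were named by rule: 16 with known roles, those with smallest p, extreme fold change or extreme count per table length in each class. Also named were untested members and paralogue pairs, and list members with the smallest p. Some genes that the rule named are not reported here.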

Additional observations from a re-analysis of the deposited data

How the results depend on the processing

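The ribosomal protein genes had 0 calls in both directions under the DESeq2 Wald test, DESeq2 size factors, library totals, limma-voom, no filter, both length offsets, both block fits, thresholds of 0.01 and 0.1, and with each library left out. Without control 1 and circ 3, 64 were called lower. The median log2 fold change was negative throughout, from -0.51 (without control 1) to -0.06 (without control 2), and the difference in share ran from -1.44 to -0.12 points over the same 2 settings. The cause was not tested.

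Over all genes, 1 was called lower and 0 higher by edgeR (470 were higher at an unadjusted p under 0.05). Lower calls numbered 23 with the DESeq2 Wald test, 5 with either length offset, 2 with no filter, 4 at a threshold of 0.1, 926 without control 1 and circ 3, and 0 with library totals, limma-voom, the replicate block, the block with the length offset, a threshold of 0.01 and each library left out (0 to 0). Higher calls numbered 60 with the DESeq2 Wald test, 3 with the coding length offset, 1 with the gene length offset, 3 at a threshold of 0.1 and 919 without control 1 and circ 3.

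Libraries with the same number deviated together for number 2 (correlation 0.46) but not for numbers 1 and 3 (-0.17 and -0.37), so the replicate block, with a median of -0.24 for the ribosomal proteins (-0.20 with the length offset), shares only a number.

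Of 976 values of named genes under alternatives, 910 kept their sign and did not reach an adjusted p under 0.05, 40 reached it without control 1 and circ 3, and 26 changed sign. EEF1A1 was -0.11 without control 1 and circ 3. EEF2 was 0.014 with the gene length offset, 0.023 with library totals and 0.0094 with the block and length offset. PABPC1 was -0.0014 with the coding length offset and -0.035 without control 1 and circ 3. With the coding length offset RPL15 was 0.043, RPL39L 0.015 and RPS27L 0.091, and RPL39L was 0.011 with the block and length offset. With a library left out, or control 1 and circ 3 together, values ran from -0.11 to 0.12 for EEF1A1, from -0.082 to 0.034 for EEF2, from -0.038 to 0.070 for PABPC1, from -0.47 to 0.015 for RPL11, from -0.17 to 0.059 for RPL15, from -0.44 to 0.055 for RPL39, from -0.49 to 0.036 for RPL39L, from -0.12 to 0.021 for RPL7L1, from -0.25 to 0.14 for RPS27L and from -0.41 to 0.015 for RPSA.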
